A study of Mus musculus with 24 samples.

Results

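The genes described here are 39 genes whose products copy the genome in S phase, taken by symbol from a published expression table of 17094 mouse genes. They comprise 10 genes of origin licensing, 6 of helicase activation, 7 of primase and the DNA polymerases, 5 of the sliding clamp and its loader, 2 of lagging strand processing, 5 of nucleotide supply and 4 that act on chromatin at new DNA. All 39 were in the table, and all 39 passed the filter on low values (at least 1 FPKM in at least 3 libraries), which 12178 genes passed in all. FPKM are fragments scaled to the length of the gene and to all mapped fragments of the library. The libraries are bulk poly(A) RNA sequencing of wild-type mouse primary chondrocytes, the cells that make cartilage matrix, grown in 10% serum in the lower chamber of a transwell plate. The chondrocytes were kept alone (normal culture) or shared medium with primary dermal fibroblasts (co-culture). Each culture was left untreated or received 10 ng/ml IL-1β, an inflammatory cytokine, starting 24 h after the cells had attached, and RNA was taken 36 h or 72 h later. This gives 8 groups of 3 libraries: normal untreated, normal with IL-1β, co-culture untreated and co-culture with IL-1β, at each of the 2 times. The labels do not say whether the 3 libraries of a group came from separate animals or cultures, so the p-values below measure only the spread between these libraries, which may be technical. The number of fragments behind each value is unknown.

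DNA replication starts at origins that are licensed in G1, when the origin recognition complex, Cdc6 and Cdt1 load the ring-shaped MCM2-7 helicase onto DNA. In S phase Cdc45 and the GINS complex join MCM2-7 to form the active helicase, primase and polymerase alpha lay down primers, and polymerases delta and epsilon extend them on the PCNA clamp. Transcripts of these genes rise at the G1/S boundary, largely under E2F transcription factors, which retinoblastoma proteins restrain, so they are commonly used as a readout of the proliferating part of a culture. In bulk RNA, fewer cells in S phase and less of these transcripts per cell cannot be told apart.

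The promoters of the members carry E2F-type letters more often than promoters in general, and stretches of 3 of them are shown. Those of Mcm6 and Pola1 were picked within the larger roles for their E2F-type matches, and not for the size of their changes. RefSeq promoter windows (build GRCm38.p6, 250 bases before to 50 bases after a start) were matched by symbol for 31 of the 39 members, with no window for Gins1, Gins2, Gins4, Rfc2, Prim2, Pole, Mcm4 and Atad2. An E2F-type match was any of TTTCCCGC, TTTCGCGC, TTTGCCGC and TTTGGCGC on either strand, and 14 of the 31 members (45.16%) had at least 1, against 704 of 27025 genes (2.605%). CCAAT, on either strand, was present for 18 of the 31 (58.06%) against 41.06% of genes, and TTTGAA, the letters of the cell cycle homology region, for 4 of 31 (12.9%) against 20.23%. A match is a string of letters and not a measured binding site. In the stretches below, written 5′ to 3′ along the gene's own strand, capitals mark the E2F-type matches, and no base lies in an annotated exon. The first, of Mcm6 (chr1:128359706-128359875, minus strand), holds 3 matches, the most of any member, which begin 110, 106 and 47 bases before the start, and the 2 farthest overlap each other. That of Pola1 (chrX:93632205-93632374, minus strand) holds 1, beginning 138 bases before the start, and that of Mcm5 (chr8:75109277-75109446, plus strand) holds 2 overlapping matches, at 153 and 149 bases. Mcm5 was added after its values had been seen.
Mcm6: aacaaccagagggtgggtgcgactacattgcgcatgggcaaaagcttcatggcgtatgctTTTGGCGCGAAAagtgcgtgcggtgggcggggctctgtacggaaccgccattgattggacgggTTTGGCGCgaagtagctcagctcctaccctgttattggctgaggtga
Pola1: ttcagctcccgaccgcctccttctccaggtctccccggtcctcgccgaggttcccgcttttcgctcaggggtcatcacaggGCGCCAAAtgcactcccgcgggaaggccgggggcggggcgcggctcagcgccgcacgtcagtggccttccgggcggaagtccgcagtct
Mcm5: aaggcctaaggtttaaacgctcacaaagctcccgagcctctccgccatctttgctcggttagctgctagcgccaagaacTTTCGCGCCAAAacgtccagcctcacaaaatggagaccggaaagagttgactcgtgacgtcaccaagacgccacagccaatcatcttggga

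The libraries carried chondrocyte transcripts but not all of the listed chondrocyte markers. Col2a1, the main cartilage collagen, averaged 302 FPKM ± 11.7 (SD, n = 3) in untreated normal culture at 36 h, whereas Matn1 and Snorc stayed under 1 FPKM. The summed level of the 10 chondrocyte markers was 784 to 816 FPKM in that group and 301 to 319 FPKM with IL-1β. Over the same groups the sum of 8 genes listed as fibroblast markers, which Dcn and Lum lead, went from 1031-1041 to 3037-3112 FPKM. Bulk RNA does not show whether chondrocytes or other cells carried these transcripts. The 8 skeletal muscle markers summed to 144-165 and 203-226 FPKM, and the 8 myeloid markers to 49.8-58.8 and 64.8-74.9 FPKM. The 6 endothelial markers and the 5 of 6 keratinocyte markers in the table stayed at 4.12 FPKM or less in every library of both groups. The part of these shifts in the results below was not tested. One library stood apart for the members: replicate 1 of normal culture with IL-1β at 72 h had the lowest of the 3 values for 38 of the 39, and its member median was 10.4 FPKM against 14.3 and 14.4 in the other two. Counts and medians of members that rest on it are given with and without it, unless stated otherwise.

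The replication genes were lowest in the libraries that received IL-1β without fibroblasts at 36 h, and most were highest in untreated cells at 72 h. The median over the 39 members in a library was 11.5 to 11.8 FPKM in untreated normal culture at 36 h and 3.66 to 3.99 FPKM with IL-1β. In co-culture the corresponding ranges were 10.2 to 10.4 and 5.70 to 5.87 FPKM. At 72 h they were 20.4 to 22.4 FPKM in untreated normal culture, 10.4 to 14.4 with IL-1β, 21.4 to 22.2 in untreated co-culture and 16.4 to 17.6 in co-culture with IL-1β. All 39 members had their lowest group mean in normal culture with IL-1β at 36 h, and 37 had their highest in an untreated group at 72 h. The map of the members by library shows these blocks. Over the 24 libraries the mean ran from 2.12 FPKM for Orc1, a subunit of the origin recognition complex, to 94.0 FPKM for Rrm2 and 106 FPKM for Pcna.

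**Figure D1:**
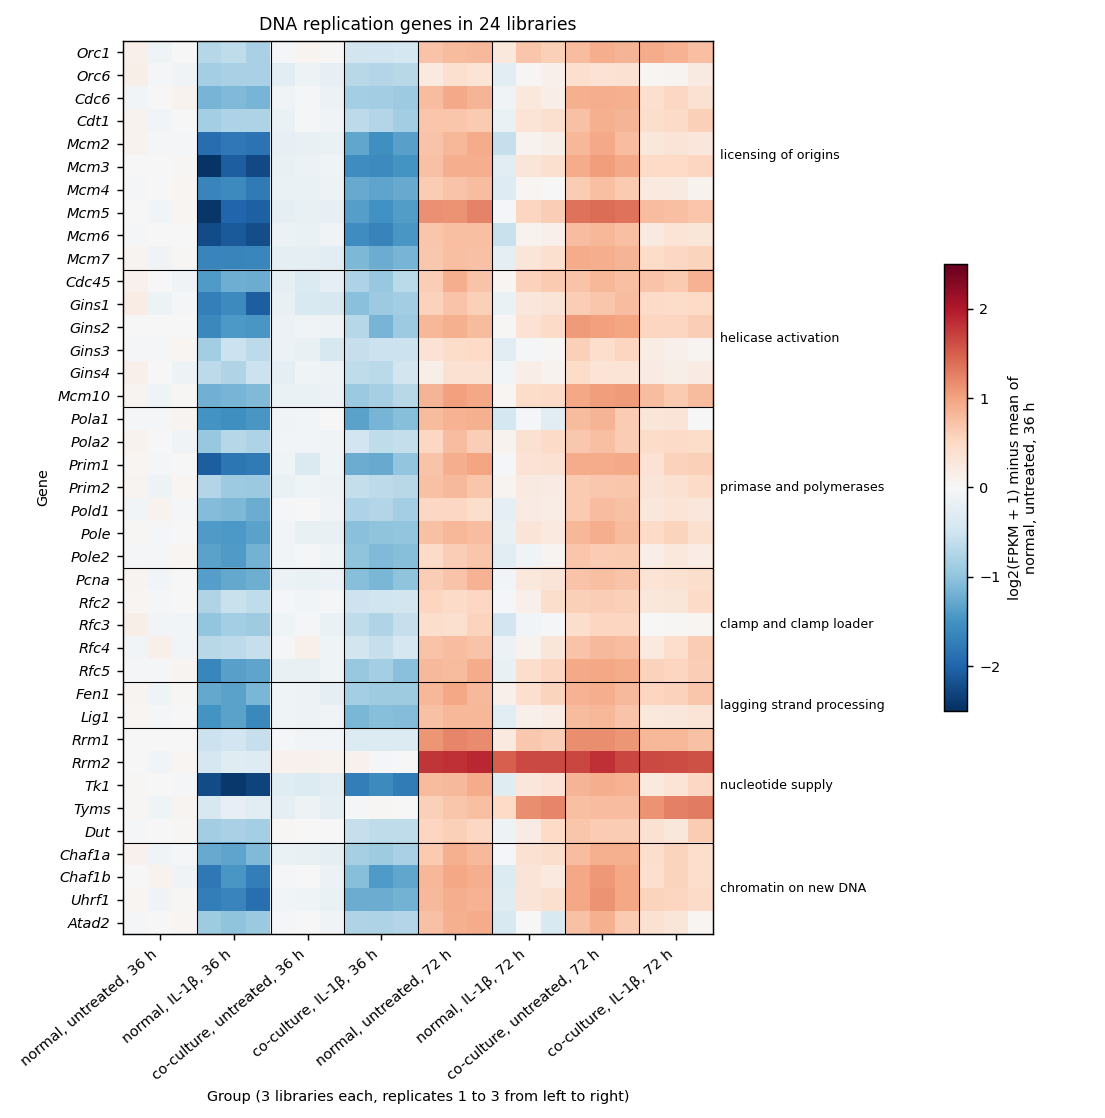
Each row is 1 of the 39 genes, ordered by role, and each column 1 of 24 libraries. Colour gives log2(FPKM + 1) minus the gene's mean in untreated normal culture at 36 h. All 39 genes have their lowest group mean in the 3 columns of normal culture with IL-1β at 36 h, and in the same treatment at 72 h the first column is lower than the other two for 38 genes.

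IL-1β lowered every replication gene in normal culture at 36 h. All 39 members passed the test as lower and 0 as higher, where 41.5% of all 12178 tested genes were lower and 25.9% higher, so a fall was common in the whole transcriptome. The size was less common: 24 of the 39 fell at least 2-fold on the log2(FPKM + 1) scale, against 3.93% of all tested genes. The median change of the members was -1.26, and that of all genes -0.09. For all 39 the 3 treated libraries lay below the 3 untreated ones, which held for 44.9% of tested genes. Expressed as a ratio of group means, the treated level was a median of 33.6% of the untreated level, from 15.9% for Mcm5 to 79.1% for Tyms.

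Among the licensing genes, all 10 fell, with a median change of -1.66. Mcm3, an MCM2-7 subunit, stood at 19.08, 19.11 and 19.73 FPKM untreated and at 2.72, 3.88 and 3.23 FPKM with IL-1β. The highest treated library was therefore far below the lowest untreated one, a change of -2.26 ± 0.11 (SE) with an adjusted p of 6.65e-14. Mcm6, the most abundant licensing transcript per length and the one whose promoter holds 3 E2F-type matches, went from 32.89, 34.12 and 34.18 FPKM to 6.40, 7.12 and 6.50 FPKM. Mcm5 changed by -2.15, Mcm2 by -1.84, Mcm4 by -1.67 and Mcm7 by -1.65. Cdc6 and Cdt1, the loading factors, changed by -1.14 and -0.79. The added 1 FPKM compresses a gene as low as Cdc6, whose treated mean was 24.2% of the untreated one, against 28.3% for Mcm4 and 29.2% for Mcm7. The origin recognition complex subunits Orc6 and Orc1 changed by -0.82 and -0.72.

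The helicase activators were all lower too (6 of 6), with a median of -1.22. Gins1, a subunit of the GINS complex, stood at 6.32, 4.90 and 5.28 FPKM untreated and at 0.98, 1.15 and 0.56 FPKM with IL-1β. Its groups did not overlap, and the change was -1.78 ± 0.11 (SE, adjusted p = 5.40e-12), although its treated level is low enough for the added 1 FPKM to compress it. Gins2, the most abundant of the 6, went from 16.15, 16.03 and 16.30 FPKM to 4.61, 5.35 and 5.27 FPKM, or 31.4% of its untreated mean. Gins3 and Gins4, the other two subunits of the same complex, changed by -0.69 and -0.65. Cdc45, the partner of GINS in the active helicase, changed by -1.29, and Mcm10, which acts when the helicase is switched on, by -1.16.

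Primase and polymerase subunits all fell as well (7 of 7, median -1.31). Prim1, the catalytic primase subunit, dropped from 11.18, 10.31 and 10.69 FPKM to 1.82, 2.33 and 2.44 FPKM, a change of -1.88 ± 0.11 (SE, adjusted p = 5.62e-13). Prim2, the large primase subunit, moved much less, from 11.53, 10.00 and 11.40 FPKM to 6.23, 5.38 and 5.27 FPKM, a change of -0.85 ± 0.06. The subunits of the same heterodimer thus started at similar untreated levels and ended apart. Pola1, the catalytic subunit of polymerase alpha, changed by -1.49, and its partner Pola2 by -0.81. The catalytic subunits of polymerases epsilon and delta, Pole and Pold1, changed by -1.40 and -1.15, and Pole2 by -1.31.

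The clamp, its loader and the lagging strand enzymes fell too, with changes from -0.65 for Rfc2 and Rfc4 to -1.48 for Lig1. Pcna, the sliding clamp, was the most abundant member and went from 103.16, 94.22 and 99.59 FPKM to 37.72, 40.43 and 41.99 FPKM, a change of -1.28 ± 0.07 (SE, adjusted p = 9.93e-13). Rfc5, a clamp loader subunit, went from 11.54, 11.56 and 12.49 FPKM to 3.14, 3.99 and 4.19 FPKM (-1.44), while Rfc3, Rfc4 and Rfc2 changed by -0.91, -0.65 and -0.65. Every treated library of Pcna and Rfc5 lay below every untreated one. Fen1, the nuclease that trims Okazaki fragments, fell from 9.60, 8.42 and 9.26 FPKM to 3.18, 2.97 and 3.54 FPKM (-1.26). Lig1, the ligase that joins them, fell from 14.16, 13.32 and 13.45 FPKM to 4.21, 4.81 and 3.80 FPKM (-1.48). Pcna and Tyms have annotated pseudogenes, and how the authors assigned shared fragments is not given in the sources used here.

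Nucleotide supply held both the largest fall on the log2(FPKM + 1) scale and the smallest ones. Tk1, the thymidine kinase of the salvage pathway, went from 28.45, 27.87 and 27.09 FPKM to 5.12, 4.44 and 4.77 FPKM, a change of -2.32 ± 0.11 (SE, adjusted p = 2.42e-14). Rrm2, the small subunit of ribonucleotide reductase, went only from 44.57, 42.05 and 46.03 FPKM to 32.75, 35.53 and 35.06 FPKM, a change of -0.35 ± 0.05 whose groups still did not overlap. Tyms, which makes thymidylate de novo, moved least, from 9.03, 8.11 and 9.32 FPKM to 6.38, 7.52 and 7.02 FPKM. Its change of -0.30 ± 0.12 had an adjusted p of 0.0265, which rose above 0.05 in 3 of the 6 fits that left out 1 library and under median-of-ratios scaling (adjusted p = 0.0644). Rrm1, the large ribonucleotide reductase subunit, changed by -0.53 and Dut, which removes dUTP, by -0.84. The routes to thymidine nucleotides therefore differed in size within the same libraries, with salvage Tk1 far below de novo Tyms in its response.

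The 4 chromatin genes fell with a median of -1.44. Uhrf1, which brings the maintenance DNA methyltransferase to new DNA, went from 15.12, 13.64 and 14.82 FPKM to 3.66, 3.96 and 3.20 FPKM (-1.76). Chaf1b, a subunit of the histone chaperone CAF-1, went from 6.68, 7.31 and 6.34 FPKM to 1.25, 1.83 and 1.35 FPKM (-1.66). The groups of both genes lay clear of each other. Chaf1a, the large CAF-1 subunit, changed by -1.23 and Atad2, a bromodomain ATPase, by -0.94.

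**Figure D2:**
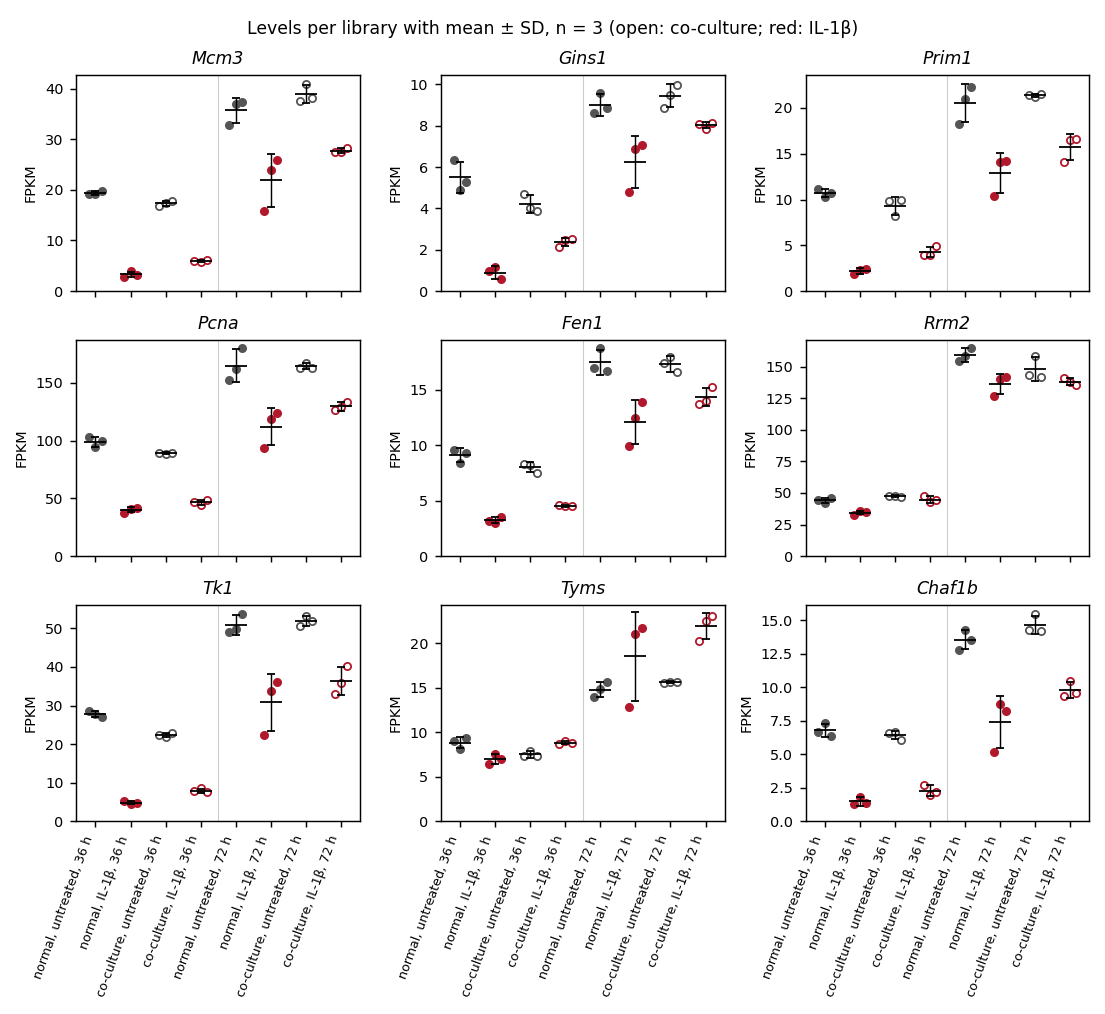
FPKM of 9 members in each library (points, replicates 1 to 3 from left to right) with the group mean and SD (n = 3), for 8 groups on the horizontal axis, 36 h to the left of the grey line and 72 h to the right. Tk1 and Mcm3 drop to 4.78 and 3.28 FPKM with IL-1β in normal culture at 36 h, while Rrm2 stays at 34.4 FPKM and then rises in all groups by 72 h.

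By 72 h of IL-1β in normal culture, 38 members were lower than in untreated cells and 1 was higher, where 40.3% of tested genes were lower and 23.1% higher. The falls were smaller than at 36 h, with a member median of -0.58 and only Pola1 (-1.10) and Atad2 (-1.10) at 2-fold or more, against 1.95% of tested genes lower by that much. Treated levels were a median of 63.2% of untreated ones, or 69.7% without the first treated library. Mcm3 stood at 32.86, 36.98 and 37.28 FPKM untreated and at 15.84, 23.88 and 25.86 FPKM with IL-1β, so the first treated library was the lowest by a wide margin but none reached the untreated range. Tk1 stood at 49.08, 49.80 and 53.72 against 22.32, 33.84 and 36.23 FPKM. Without that library, 35 members were lower and the member median was -0.48.

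Tyms was the member called higher at that time, with 13.89, 14.80 and 15.59 FPKM untreated and 12.79, 20.98 and 21.74 FPKM treated. The groups overlapped, since the first treated library lay below all untreated ones. Its change of 0.27 ± 0.12 (SE, adjusted p = 0.0450) did not pass in 4 of the 6 fits that left out 1 library, nor with TPM scaling, without the filter, or when only the 2 groups were fitted (highest adjusted p 0.212). In co-culture at 72 h the corresponding libraries were 15.51, 15.65 and 15.66 FPKM untreated and 20.25, 22.45 and 23.08 FPKM with IL-1β, groups that did not overlap. There the change was 0.46 ± 0.12 (SE, adjusted p = 0.00215).

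With fibroblasts present, IL-1β still lowered most members, by less. In co-culture at 36 h, 37 members were lower and 0 higher, where 35.3% of tested genes were lower and 23.4% higher, and the member median was -0.71. At 2-fold or more, 9 members fell, against 1.70% of tested genes. Mcm3 stood at 16.78, 17.38 and 17.76 FPKM untreated and 5.92, 5.78 and 6.17 FPKM treated, a change of -1.40 ± 0.11 (SE, adjusted p = 4.23e-10). Tk1 went from 22.37, 21.72 and 22.99 FPKM to 7.70, 8.54 and 7.58 FPKM (-1.39), and Mcm6 changed by -1.42. For these the treated and untreated libraries were well separated. Gins1 went from 4.69, 4 and 3.89 FPKM to 2.14, 2.45 and 2.54 FPKM, a change of -0.62 ± 0.11.

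The members that did not pass in co-culture at 36 h were both in nucleotide supply. Rrm2 was at 47.68, 47.85 and 46.84 FPKM untreated and 47.53, 42.49 and 44.16 FPKM treated, ranges that overlapped (-0.09 ± 0.05 SE, adjusted p = 0.172). Tyms was at 7.31, 7.93 and 7.26 FPKM untreated and 8.63, 8.99 and 8.78 FPKM treated, so its treated libraries were above the untreated ones (0.21 ± 0.12 SE, adjusted p = 0.134). At 72 h in co-culture, 33 members were lower and 1, Tyms, higher, where 30.6% of tested genes were lower and 18.5% higher. The member median was -0.37, and 0 members reached a 2-fold fall, as 1.47% of tested genes did. Orc1, Cdc45, Rrm2, Gins1 and Dut did not pass, with changes of 0.01, -0.02, -0.10, -0.21 and -0.23. Relative to untreated cells of the same culture and time, the median member stood at 54.6% at 36 h and 75.8% at 72 h.

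**Figure D3:**
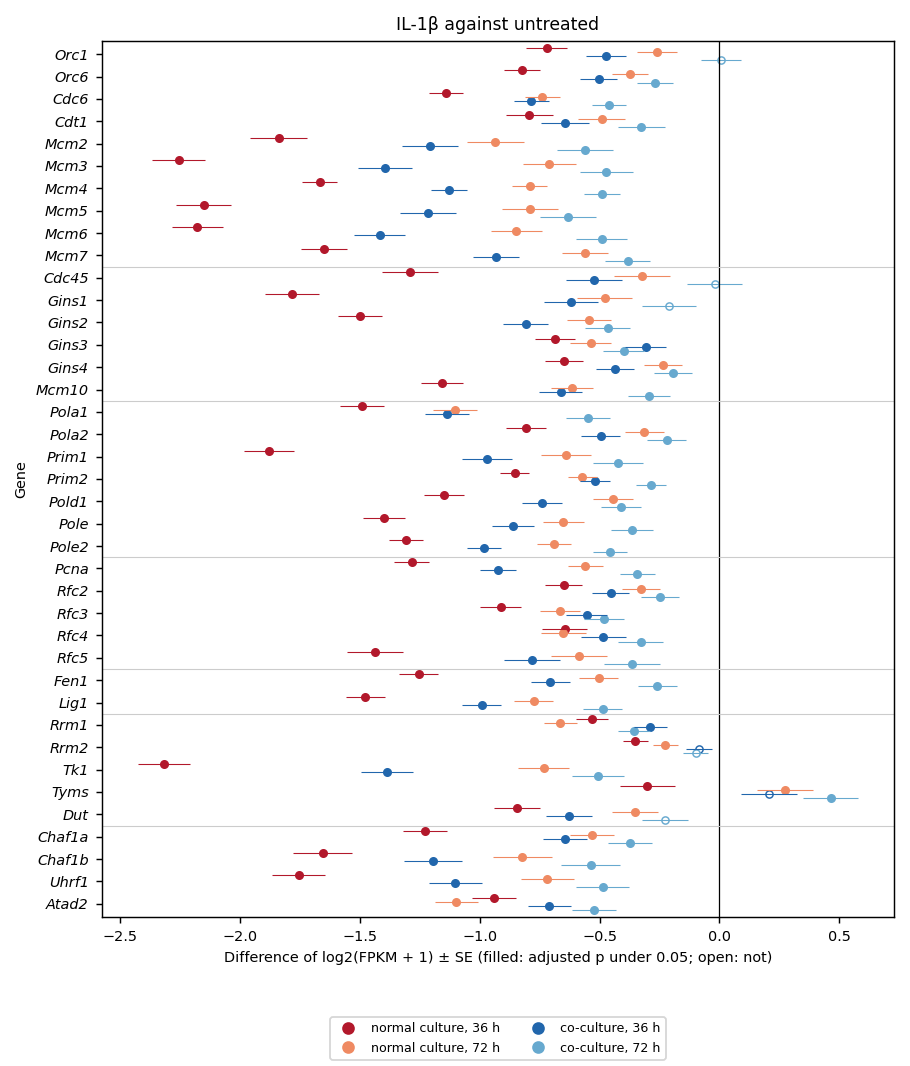
Difference of log2(FPKM + 1) between IL-1β and untreated libraries (horizontal, ± SE) for each member (vertical, by role) in 4 comparisons of 3 against 3 libraries. Filled points have an adjusted p under 0.05 and open points do not. Red points of normal culture at 36 h lie farthest left for most genes, and Tyms is the only gene with points to the right of 0.1.

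The order of the members by the size of their IL-1β effect was much the same with and without fibroblasts. Across the 39 members, Spearman's rho between the effects in normal culture and in co-culture was 0.91 at 36 h and 0.91 at 72 h, and across all tested genes 0.92 and 0.88. These comparisons share no library, and the points share each gene's own abundance. Between 36 h and 72 h the rho over members was 0.62 in normal culture and 0.81 in co-culture, with 0.63 and 0.64 for all tested genes. Both values describe genes, which are not independent replicates.

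Fibroblasts alone did not move any member past the threshold. In untreated cells at 36 h limma called 0 members lower and 0 higher, where 9.20% of tested genes were lower and 6.28% higher. At an unadjusted p under 0.05, 8 members were lower and 0 higher. For counts at that level, here and below, the share of all tested genes is not given. The member changes ran from -0.32 for Gins1 to 0.10 for Rrm2, with a median of -0.14 and an adjusted p of at least 0.0598. All 3 co-culture libraries lay below all 3 normal libraries for 23 of the 39 members, against 26.3% of tested genes. Mcm3 was at 19.08, 19.11 and 19.73 FPKM in normal culture and 16.78, 17.38 and 17.76 FPKM in co-culture, close levels that did not overlap. With only these 2 groups fitted, 16 members were called lower, as were 1890 of the 12178 tested genes. With weights per library it was 14 members and 2275 genes, so this result depends on how the spread was estimated. At 72 h untreated, 0 members were lower or higher at adjusted p under 0.05, where 1.68% and 1.72% of tested genes were, and 0 lower and 2 higher at an unadjusted p under 0.05. Changes there ran from -0.11 for Rrm2 to 0.23 for Pold1. With only these groups fitted, 4 members and 716 of all tested genes were called higher, and with weights per library 2 members and 1009 genes.

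Under IL-1β, members were higher in co-culture than in normal culture. At 36 h, 26 were called higher and 0 lower, where 6.38% of tested genes were higher and 4.17% lower, and the member median was 0.36 against 0.00 for all tested genes. These comparisons use the same treated libraries as the IL-1β comparisons above and are not a separate sign of the same thing. Gins1 showed the largest difference, with 0.98, 1.15 and 0.56 FPKM in normal culture and 2.14, 2.45 and 2.54 FPKM in co-culture, a change of 0.84 ± 0.11 (SE, adjusted p = 4.01e-05). Mcm5 and Prim1 each differed by 0.72, and Prim1 was at 1.82, 2.33 and 2.44 against 3.98, 3.91 and 4.92 FPKM. Neither gene's groups overlapped. Rrm2 was at 32.75, 35.53 and 35.06 against 47.53, 42.49 and 44.16 FPKM (0.37 ± 0.05). The group means were higher in co-culture for all 39 members, and all 3 co-culture libraries lay above all 3 normal ones for 35, against 17.4% of tested genes.

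By role, 8 of 10 licensing genes passed in that comparison, 4 of 6 helicase activators, 6 of 7 primase and polymerase genes, 1 of 5 clamp genes, 2 of 2 lagging strand genes, 2 of 5 nucleotide genes and 3 of 4 chromatin genes. The 13 that did not pass were Cdt1, Gins4, Orc6, Gins3, Rfc2, Rfc4, Rrm1, Atad2, Pcna, Dut, Pola2, Rfc3 and Tyms, with differences from 0.04 to 0.30. Pcna, the clamp, was at 37.72, 40.43 and 41.99 FPKM in normal culture and 46.55, 44.01 and 48.89 FPKM in co-culture, a difference of 0.21 ± 0.07 that missed the threshold although the groups did not overlap. Without replicate 1 of normal culture with IL-1β at 36 h, 17 members were called higher. Over all tested genes the higher calls went from 777 to 468 there.

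At 72 h under IL-1β, 21 members were called higher in co-culture and 0 lower, where 7.22% of tested genes were higher and 5.26% lower, with a member median of 0.28. Atad2 differed most, with 9.38, 12.56 and 9.37 FPKM in normal culture and 16.49, 15.59 and 12.84 FPKM in co-culture (0.49 ± 0.09 SE, adjusted p = 0.00212). Pola1 was at 3.96, 5.63 and 4.52 against 7.28, 7.41 and 5.80 FPKM (0.46 ± 0.09). The groups of each were separate, though the highest normal and lowest co-culture libraries were near each other. This count moved strongly with single libraries. Without replicate 1 of normal culture with IL-1β it was 6 and the member median 0.14, and without replicate 3 of that group it was 36. Without replicates 1, 2 and 3 of co-culture with IL-1β it was 11, 4 and 12. Over all tested genes the higher calls moved as well, from 879 to 345, 1482, 471, 307 and 981 in the same order. With only the 2 groups fitted the member count was 0, with or without the replicate number as a block. Those fits called 0 of all 12178 tested genes in either direction, so this 0 is not particular to the members. Rrm2, which differed at 36 h, was at 126.78, 140.16 and 141.42 against 140.61, 138.05 and 135.22 FPKM, and its ranges overlapped (0.02 ± 0.05).

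**Figure D4:**
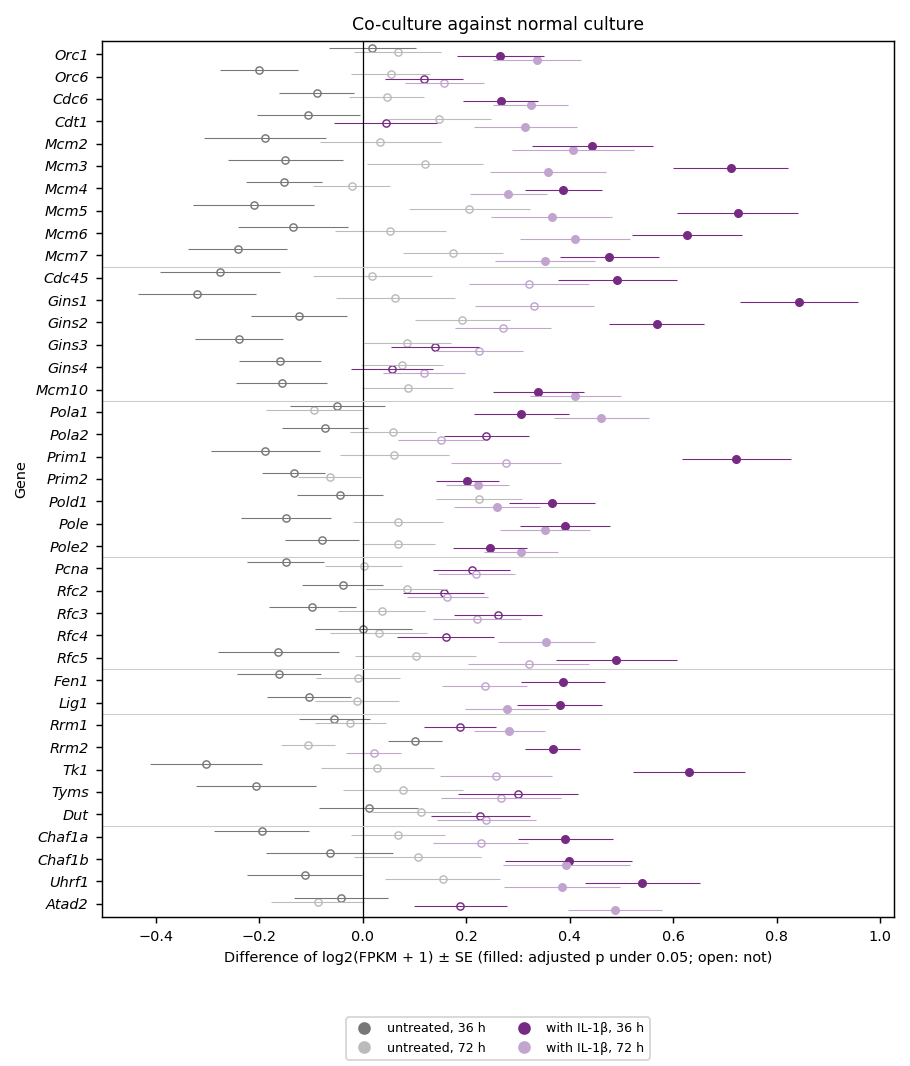
Difference of log2(FPKM + 1) between co-culture and normal culture (horizontal, ± SE) for each member (vertical, by role), untreated (grey) and with IL-1β (purple), at 36 h and 72 h, 3 against 3 libraries each. Filled points have an adjusted p under 0.05. Every filled point is purple and lies to the right of 0, and all grey points are open.

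The test of whether the IL-1β effect itself differed between the cultures gave 23 members at 36 h, all with a smaller fall in co-culture, where 4.73% of tested genes differed in that direction and 2.23% in the other. The member median of this difference was 0.46. The test sets the co-culture difference under IL-1β (member median 0.36) against that in untreated cells (-0.14), so lower untreated levels in co-culture are part of it. Gins1 led with 1.16 ± 0.16 (SE, adjusted p = 1.13e-04), followed by Mcm5 with 0.94, Tk1 with 0.93 and Prim1 with 0.91. Put as shares, Gins1 stood at 16.3% of its untreated level in normal culture and 56.7% in co-culture. Those untreated levels were unlike, with means of 5.50 FPKM in normal culture and 4.19 FPKM in co-culture. At 72 h only Atad2 (0.57 ± 0.13, adjusted p = 0.0193) and Pola1 (0.56 ± 0.13, adjusted p = 0.0243) passed, of 39 members, where 1.68% of tested genes differed that way and 1.43% the other. The member median was 0.23 at 72 h, and without replicate 1 of normal culture with IL-1β it was 0.08, with 2 members called. Leaving out single libraries gave 0 to 7 members. The count was 0 without replicate 3 of untreated normal culture, replicate 3 of untreated co-culture, or replicate 1 or 2 of co-culture with IL-1β. It was 1 without replicate 2 of untreated normal culture, 4 without replicate 3 of co-culture with IL-1β and 7 without replicate 2 of normal culture with IL-1β. Over all tested genes the calls in that direction were 205 with all libraries and ran from 52 to 697 in these fits.

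**Figure D5:**
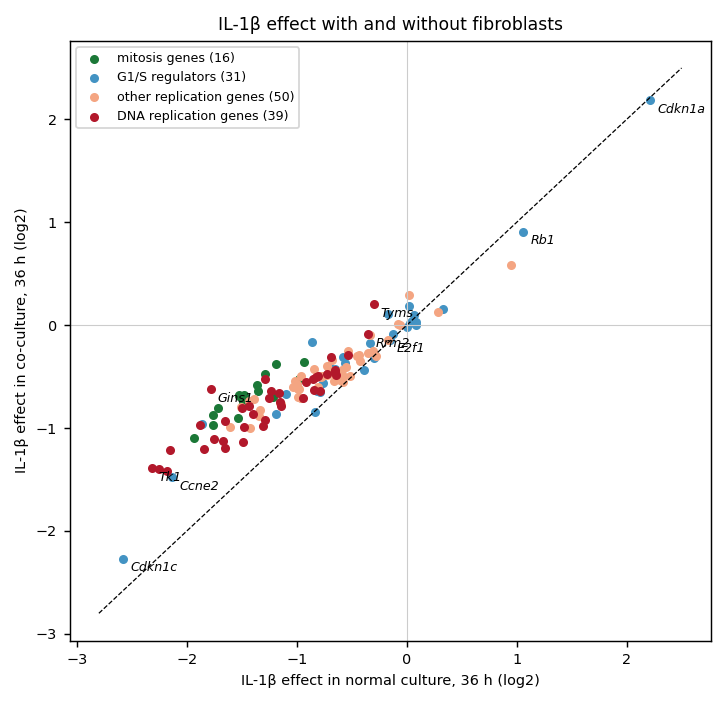
IL-1β effect at 36 h in normal culture (horizontal) against that in co-culture (vertical), both as log2 differences, for the 39 replication genes and 3 lists of other cell cycle genes, 1 point per gene. The dashed line marks equal effects. All 39 replication genes lie above it, while Cdkn1a and Rb1 lie close to it.

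Time raised the members under every condition. From 36 h to 72 h all 39 were higher in untreated normal culture, where 33.1% of tested genes were higher and 25.3% lower, and the member median was 0.78. All 39 were also higher in normal culture with IL-1β (median 1.48, or 1.62 with 39 still higher when replicate 1 at 72 h was left out), where 37.1% of tested genes were higher and 32.0% lower. The same held in untreated co-culture (median 0.97, 36.6% of tested genes higher and 24.9% lower) and in co-culture with IL-1β (median 1.40, 35.4% higher and 28.9% lower). Rrm2 rose most in untreated normal culture, from 44.57, 42.05 and 46.03 FPKM to 154.23, 158.75 and 164.81 FPKM, a change of 1.83 ± 0.05 (SE, adjusted p = 1.42e-17). With IL-1β in normal culture Mcm5 rose most (2.53), then Tk1 (2.43) and Mcm3 (2.40), the latter from 2.72, 3.88 and 3.23 to 15.84, 23.88 and 25.86 FPKM. The 36 h and 72 h libraries did not overlap for any of these genes. Smallest among untreated normal cells were Gins4 (0.31) and Orc6 (0.33). Other marker sums moved over the same interval in untreated normal culture, the 8 skeletal muscle genes from 144-165 to 29.6-31.9 FPKM and the 8 fibroblast genes from 1031-1041 to 255-313 FPKM. The myeloid sum went from 49.8-58.8 to 96.8-103 FPKM and the chondrocyte sum from 784-816 to 1072-1139 FPKM. The part of these shifts in the rise of the members was not tested.

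The IL-1β effect was smaller at 72 h than at 36 h for most members, by a test of that difference. In normal culture 32 members passed (35 without replicate 1 of IL-1β at 72 h), all as higher, where 23.7% of tested genes passed as higher and 21.6% as lower. Of the 32, Tyms turned from a fall to a rise, and the rest fell by less at 72 h. Tk1 changed most, by 1.59 ± 0.15 (SE, adjusted p = 3.32e-08), then Mcm3 by 1.55 and Mcm5 by 1.36. Atad2, Rrm1, Rfc4, Rrm2, Gins3, Rfc3 and Cdt1 did not pass. In co-culture 23 passed (14.1% of tested genes higher, 14.8% lower), led by Mcm6 (0.93 ± 0.15, adjusted p = 7.02e-05), Mcm3 (0.92) and Tk1 (0.88). Atad2 and Rrm1 had differences of -0.16 and -0.13 in normal culture, with nearly the same fall at both times. The mean in cells treated for 72 h was above that of untreated cells at 36 h for 30 members in normal culture (34 without that replicate 1) and for all 39 in co-culture. The co-culture effect under IL-1β differed between the times for 1 member, Rrm2 (-0.35 ± 0.07, adjusted p = 0.0119), where 1.52% of tested genes were lower and 1.08% higher. That count was 11 without replicate 1 of normal culture with IL-1β at 72 h and 0 without replicate 1 of co-culture with IL-1β at 36 h. The same fits called 324 and 102 of all tested genes lower, against 185 with all libraries. Without IL-1β limma called 0 members for that difference, where 2.21% of tested genes were lower and 2.76% higher, and at an unadjusted p under 0.05 there were 1 lower and 9 higher.

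With IL-1β the median fall was larger in members with an E2F-type match than in those without, by amounts that were not tested. In normal culture at 36 h the median change was -1.39 for the 14 with a match, -1.23 for the 17 without and -1.17 for the 8 without a window. The ranges overlapped almost wholly, from -2.26 to -0.69 with a match and from -2.32 to -0.30 without. Tk1, whose fall was the largest on the log2(FPKM + 1) scale, had no match in its window, and Rrm2, Rrm1 and Tyms had none either. In co-culture at 36 h the medians were -0.96, -0.64 and -0.67. At 72 h they were -0.70, -0.56 and -0.56 in normal culture, with replicate 1 of IL-1β kept. In co-culture at 72 h they were -0.47, -0.33 and -0.33. These are descriptions of letters in 1 window per start and show nothing of which factor is bound.

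Other genes of replication, a list of 50, mostly moved in the same direction as the members, by less. IL-1β in normal culture at 36 h lowered 45 and raised 2, with a median of -0.71 against -1.26 for the members. Of all tested genes, 41.5% were lower and 25.9% higher there. Asf1b, a histone chaperone, changed by -1.61, Nasp, another histone chaperone, by -1.51 and Hells, a chromatin remodeller, by -1.42. The 2 that rose were Pold4, the smallest subunit of polymerase delta (0.95), and Rrm2b, the p53-inducible form of the small ribonucleotide reductase subunit (0.29). In co-culture 44 were lower and 2 higher at 36 h, where 35.3% of tested genes were lower and 23.4% higher. All 16 listed mitosis genes were lower in both cultures at 36 h, with medians of -1.49 and -0.68, and Mki67, the proliferation antigen, changed by -1.93 and -1.10. Under IL-1β at 36 h, 20 of the 50 and 16 of the 16 were higher in co-culture than in normal culture, with 0 lower in either list. Of all tested genes, 6.38% were higher and 4.17% lower. The median of the 50 was 0.20, against 0.36 for the members.

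The regulators of the G1/S step did not move as a block. Of 31 tested, 19 were lower and 3 higher with IL-1β in normal culture at 36 h. The shares over all tested genes were 41.5% lower and 25.9% higher. Cdkn1a, the CDK inhibitor p21, was at 107.75, 92.08 and 99.54 FPKM untreated and 462.91, 466.04 and 468.26 FPKM treated, a change of 2.21 ± 0.08 that was the largest rise in the list. Cdkn1c, the CDK inhibitor p57, went the other way, from 74.84, 77.96 and 70.67 FPKM to 12.38, 12.46 and 10.10 FPKM (-2.58). Inhibitors of the same family thus moved in opposite directions in the same libraries. Ccne2, a cyclin that drives entry into S phase, went from 7.97, 8.72 and 8.63 FPKM to 1.08, 0.96 and 1.43 FPKM (-2.14), and Rb1, the retinoblastoma protein, changed by 1.06. E2f1, an activating E2F, changed by only -0.16, while E2f7 and E2f8, the atypical repressors, changed by -1.10 and -1.19.

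In co-culture with IL-1β the rise of Cdkn1a was about the same size as in normal culture at 36 h. It stood at 93.29, 95.41 and 90.85 FPKM untreated and 449.01, 425.51 and 409.53 FPKM treated, a change of 2.19, and the difference of the IL-1β effects between the cultures was -0.03 ± 0.11 (SE). Rb1 changed by 0.91 there and its difference was -0.15 ± 0.14. Ccne2 and Ccna2, cyclins of S phase entry and progression, fell less in co-culture, by 0.66 and 0.91 on the log2 scale, and both differences passed. At 72 h with IL-1β, Cdkn1a was at 524.74, 375.77 and 402.64 FPKM in normal culture and 301.91, 292.90 and 315.13 FPKM in co-culture, groups that did not overlap (-0.50 ± 0.08, or -0.36 without replicate 1 of normal culture). Replicate 1 of normal culture, the lowest of the 3 libraries of its group for 38 members, was the highest of all libraries for Cdkn1a.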

How the data were processed

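Bulk RNA sequencing of 24 libraries was given by the authors as deposited FPKM values, 1 per gene and library, in 1 table with 2 decimals. The genome build was GRCm38, per the submitters' processing notes. The aligner, counter and annotation are not given in the sources used here. Values were transformed to log2(FPKM + 1), with genes at 1 FPKM or more in at least 3 libraries kept (12178 of 17094), and fitted with limma 3.58.1 (R 4.3.3, trended prior) as 1 mean per group over 24 libraries, with 16 residual degrees of freedom and no replicate block. Adjusted p is Benjamini-Hochberg over all tested genes of a comparison, called under 0.05. A fold on this scale understates the change of low genes. The library sums were 438242 to 506621 FPKM, and read depth is unknown, so no counting interval is given. The procedure was tested on simulated data.

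The members and lists were chosen with earlier results of these data known. Values in every library are given for the member with the highest mean and the member with the largest IL-1β change in each role. Up to 3 members with the largest change, and those not called or called against the majority, are named per comparison, as are up to 4 changed genes per other list. Mcm5's promoter and further regulators were named after their values were seen. Same-numbered libraries deviated together, with a correlation above 0.1 for each number, for co-culture under IL-1β at 72 h alone (0.364, 0.179 and 0.577). Alternatives were log2(FPKM + 0.1), no filter, a filter at 5 FPKM, TPM scaling, median-of-ratios scaling, a fit of just the groups compared, replicate blocks, and leaving out each library. Weights per library and the compared groups with the block were added after seeing the data. Gene positions came from GENCODE, and figures were drawn with matplotlib 3.10.9.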

Additional observations from a re-analysis of the deposited data

Results flagged for a closer look

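The IL-1β effect differed between co-culture and normal culture by a test of the difference itself for 23 members at 36 h, most for Gins1 (1.16 on the log2 scale). In that direction 4.73% of all tested genes differed. At 72 h it differed for 2 members, most for Atad2 (0.57), and for 1.68% of tested genes. That count was 0 to 7 when single libraries were left out, and 0 with just the groups compared fitted. The latter fit called only 10 lower and 2 higher of all 12178 tested genes. The IL-1β effect differed between 72 h and 36 h for 32 members in normal culture, most for Tk1 (1.59), against 23.7% of tested genes in that direction. In co-culture it differed for 23 members, most for Mcm6 (0.93), against 14.1%. The co-culture effect under IL-1β differed between the times for 1 member, Rrm2 (-0.35), and for 1.52% of tested genes in that direction. Leaving out single libraries gave 0 to 11 members, and fitting just the groups compared gave 0. Over all tested genes the lower calls ran from 102 to 324 without single libraries and were 53 with just the groups compared. Each was picked out because 2 groups' effects under the same contrast differed, and no explanation was weighed.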

How the results depend on the processing

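The number of members called kept within 1.5 times its value, under every alternative run, for IL-1β against untreated in both cultures at both times (counts of lower members) and for all 4 comparisons of 72 h against 36 h (39 each). No change reversed direction in a called gene under the alternatives run. Leaving out single libraries gave 38 to 39 lower members for IL-1β in normal culture at 36 h, 35 to 38 at 72 h, 37 in co-culture at 36 h and 29 to 32 at 72 h. The same gave 17 to 23 higher members for co-culture under IL-1β at 36 h and 4 to 36 at 72 h. Over all tested genes the higher calls in the latter ran from 307 to 1482. For the difference of the IL-1β effects between cultures it gave 17 to 21 members at 36 h and 0 to 7 at 72 h. It gave 31 to 35 and 18 to 22 for the difference of the IL-1β effect between times in normal culture and co-culture. The change with time of co-culture under IL-1β had 0 to 11 lower members. That last count, 1 in the report, was 3 with log2(FPKM + 0.1), 2 with TPM scaling, 0 when just the groups compared were fitted, 2 with the replicate block within each time and 12 with weights per library. Members lower in untreated co-culture at 36 h, 0 in the report, numbered 2 with TPM scaling, 16 when just the groups compared were fitted, 2 with the replicate block within each time and 14 with weights per library. Co-culture under IL-1β at 72 h, 21 in the report, gave 0 with the compared groups only, also when blocked by replicate. Those fits called 0 of all tested genes. The count was 23 and 27 with the replicate block over all libraries and within each time. The difference of the IL-1β effects at 72 h, 2 in the report, gave 0 with the compared groups only and 6 with weights per library. Over all tested genes those fits called 10 lower and 2 higher, and 560 lower and 860 higher. The untreated co-culture effect between times gave 1 lower and 13 higher members with the compared groups only and 1 lower and 10 higher with weights per library, against 0 in the report. Over all tested genes these fits called 861 lower and 1194 higher, and 973 lower and 1377 higher. Untreated co-culture at 72 h, also 0 in the report, gave 4 higher members with the compared groups only and 2 with weights per library. The cause of these changes was not tested. TPM scaling moved the median of all genes for IL-1β in normal culture at 72 h from -0.08 to -0.20, and the genes called lower and higher from 4909 and 2809 to 6508 and 2005 (3886 and 3622 with median-of-ratios scaling), while the member median went from -0.58 to -0.72. In co-culture at 72 h TPM scaling moved the calls over all genes from 3729 and 2249 to 5460 and 1719. Depth is unknown, so precision at low levels, as for Orc1 and Gins1, could not be assessed beyond the spread of 3 libraries.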

Other observations

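Some G1/S regulators changed with IL-1β in ways that depended on time. Ccnd1, the D-type cyclin that links growth signals to CDK4 and CDK6, changed by 0.06 at 36 h in normal culture, which did not pass, and fell by 0.98 on the log2 scale at 72 h. Myc, a growth-promoting transcription factor, fell by 0.83 at 36 h and rose by 0.26 at 72 h. Cdkn2a, which encodes the inhibitors p16 and ARF, was lower in untreated co-culture than in untreated normal culture at 36 h, by -0.49. Cdkn1c fell with time in untreated normal culture, from 74.84, 77.96 and 70.67 FPKM to 16.23, 11.11 and 12.38 FPKM, a change of -2.42.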
